A study of Mus musculus with 3 samples.

Results

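The genes described here encode 3 receptors of the Notch family (Notch1, Notch2 and Notch3), the ligand Jag1 and 4 transcription factors that Notch signalling induces (Hes1, Hey1, Hey2 and Heyl). They were picked by name, with earlier results of these data known, and found through the RefSeq transcript that each probe of the array reads. They make up 8 of the 15394 genes tested, are read by 10 probes in all, and 7 of them had a signal well above background on all 3 arrays. The study compared myofibroblasts of the heart, fibroblasts that contract and lay down matrix after injury, in 3 states: attached to plastic plates (adherent), kept in suspension (non-adherent) and returned to plates after suspension (re-adherent). All 3 states came from male C57BL/6J mice without any stated transgene, whose left anterior descending artery had been tied off for good 3 days before the hearts were taken. Age is given as 8 weeks in 1 label and as 10 weeks at the operation in another. The cells had attached to plastic overnight and had been depleted of cells bearing CD45, a surface protein of leukocytes. Each state was 1 array of RNA mixed from several hearts, and the states were collected in turn from the same kind of culture, so state and time in culture cannot be told apart. The authors describe a large loss of cells in suspension through anoikis, a death of detached cells. Re-adherent cells grew from those that remained, so state and this loss cannot be told apart either. No comparison has a replicate check, and no p-value is given.

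Notch receptors are membrane proteins that respond to ligands on neighbouring cells. Binding of a ligand such as Jagged1, the product of Jag1, exposes the receptor to cleavage by an ADAM protease and then by gamma-secretase. The released intracellular part joins the DNA-binding protein RBPJ and a Mastermind protein in the nucleus and switches on repressors of the Hes and Hey families. In the heart and its vessels, Notch1 is best known in endothelial cells and Notch3 in the mural cells that wrap vessels, and Jag1 is a ligand in both settings.

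Of the non-control spots, between 53.9% and 59.9% were well above background on each array and none was saturated. The scanner software's error of a log2 difference, which covers technical error within arrays alone, was typically 0.20, and repeated spots of 1 probe varied less, with a median SD from 0.062 to 0.078 over the pairs. Each of the 6 listed contractile genes of smooth muscle and myofibroblasts was over 2-fold lower in suspension, where Myh11 was not well above background. Their summed signal, in units of the array's 75th percentile, was 1649 in adherent, 25.5 in non-adherent and 1640 in re-adherent cells. Acta2, Tagln and Myl9 were the brightest on both plated arrays. In re-adherent cells Myh11 and Cnn1 differed from their adherent levels by -2.40 and -0.81 on the log2 scale, and the others by -0.21 to 0.20. All 8 fibroblast markers were well above background on every array. In suspension 7 of them were lower, 4 over 2-fold, and 1 was over 2-fold higher, with summed signals of 985, 694 and 767 in the same order. Macrophage markers were also present despite the CD45 depletion. In suspension 10 of 11 of them were over 2-fold higher, and their summed signal was 185, 1127 and 375 in the same order. Of all genes tested, 17.2% were over 2-fold higher in suspension and 14.7% over 2-fold lower.

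The first comparison asked how the Notch genes differed between cells in suspension and cells on plastic. The targets Heyl and Hey1 were 12.5-fold and 5.27-fold higher in suspension, whereas Jag1 and Hes1 were 3.02-fold and 2.43-fold lower. The receptors differed by less than 2-fold. In all, 2 of the 8 genes were over 2-fold higher, where 17.2% of all genes tested were. Another 3 were over 2-fold lower, where 14.7% of all genes were, and 1 of these 3, Hey2, was not well above background in suspension. Hey2 entered through the adherent array alone, the state in which it was high. Of the 7 genes above background on all 3 arrays, 2 were over 2-fold higher and 2 over 2-fold lower. Among all genes with such a signal, 15.2% were higher and 13.4% lower by that limit. The median difference of the 8 was 0.17 on the log2 scale, with a range from -2.71 to 3.64, against a median of -0.07 over all genes.

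The brighter of the 2 probes of the receptor Notch2 had a signal of 3715 intensity units in adherent, 6355 in non-adherent and 2511 in re-adherent cells. Its level was highest in suspension, by 0.68 on the log2 scale with a technical error of 0.20, and the second probe gave 0.69 with an error of 0.25. Notch3 had signals of 1418, 2327 and 680 units in the same order. It too was highest in suspension, by 0.62 with an error of 0.20, and lowest in re-adherent cells. With spike-in scaling the differences in suspension were 0.28 for Notch2 and 0.22 for Notch3, close to their technical error. Notch1, the receptor that guides artery and valve development, had signals of 253, 225 and 130 units. The difference in suspension was -0.27 with an error of 0.21 for this probe and 0.73 with an error of 0.35 for a dimmer second probe of the same transcript, so the probes disagreed in direction and no direction can be given for Notch1 in suspension.

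The RefSeq table of promoter windows held 5 of the 8 genes, Notch1, Notch2, Notch3, Jag1 and Hey2, and no window for Hes1, Hey1 and Heyl. The 250 bases before the start of each gene were searched on both strands for TGGGAA (the core of the RBPJ site), CACGTG (the E-box), CACNAG (the N-box, a site of Hes proteins) and GGAATG (the core of the TEAD site, added because TEAD factors are the partners of the cofactor the study followed). These were found in 21.6%, 6.02%, 36.7% and 12.6% of all 32851 windows of that length. The window of Notch3 is shown because it is the receptor with the largest difference on re-adhesion, and it held 2 N-box matches, in capitals, and no match to the other 3 motifs. It lies on the minus strand at chr17:32166891-32167140 in GRCm38.p6 and is written 5′ to 3′ as the gene reads.
Notch3: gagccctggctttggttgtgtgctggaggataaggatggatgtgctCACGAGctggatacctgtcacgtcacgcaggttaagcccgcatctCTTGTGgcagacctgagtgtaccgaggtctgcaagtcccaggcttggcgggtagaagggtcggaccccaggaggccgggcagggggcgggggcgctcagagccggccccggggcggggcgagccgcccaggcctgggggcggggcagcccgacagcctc
The windows of Notch1 and Notch2 held 1 N-box match each, and that of Notch1 also 2 matches to the TEAD core. A match is a description of letters and not a binding site.

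Jag1, the ligand, had signals of 3159 units in adherent, 1118 in non-adherent and 2526 in re-adherent cells. Both plated states were well above the state in suspension. The difference in suspension was -1.60 with an error of 0.20, and 7.61% of all genes had a more negative difference. Under the 13 settings tried, counting the one used, it lay between -1.99 and -1.50. The promoter window of Jag1 is shown since Jag1 is the one ligand of the 8. It lies on the minus strand at chr2:137116521-137116770 in GRCm38.p6, is written 5′ to 3′, and held none of the 4 motifs, so it carries no capitals.
Jag1: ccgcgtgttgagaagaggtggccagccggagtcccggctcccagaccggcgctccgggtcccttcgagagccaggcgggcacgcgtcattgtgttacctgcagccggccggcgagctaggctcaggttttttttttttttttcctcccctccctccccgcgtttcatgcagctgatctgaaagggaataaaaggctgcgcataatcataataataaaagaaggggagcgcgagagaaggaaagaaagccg

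**Figure D1:**
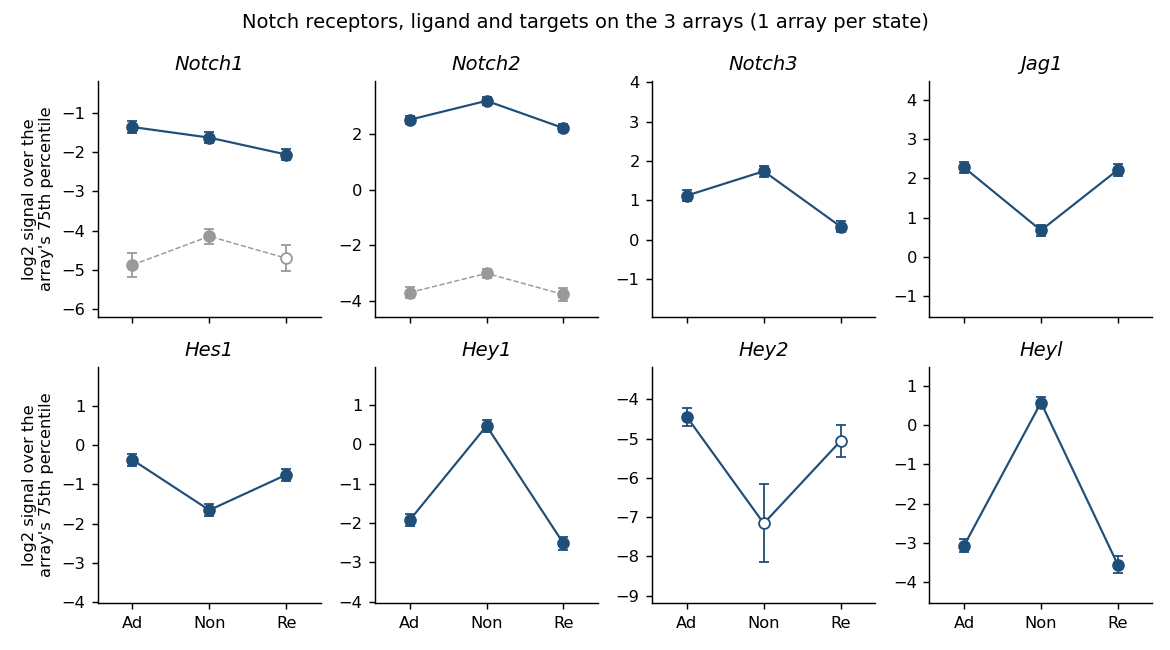
Level of each Notch gene in the 3 states of culture (Ad, adherent; Non, in suspension; Re, plated again), as log2 signal over the array's 75th percentile, with an axis of its own for each gene; bars are the scanner software's error of 1 spot, grey dashed lines are second probes, and open circles are not well above background. Hey1 and Heyl peak in suspension, Jag1 and Hes1 dip there, and Hey2 is above background on the adherent array alone.

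Among the targets, Hes1, a repressor that many signals besides Notch can induce, had signals of 501 units in adherent, 221 in suspended and 320 in re-adherent cells. It was lowest in suspension, with a difference of -1.28 and an error of 0.21, and it thus went the same way as Jag1 and the opposite way to Hey1 and Heyl. Hey1, a repressor active in vessels, had signals of 171, 965 and 94.6 units. The suspended cells stood far above both plated states, by 2.40 over adherent cells with an error of 0.21. Heyl, a relative of Hey1 found in mural and smooth muscle cells, had signals of 77.3, 1034 and 45.9 units. Suspended cells exceeded adherent cells by 3.64 with an error of 0.22, a difference exceeded by 146 genes, or 0.948% of all genes tested, and it lay between 2.75 and 3.74 under the 13 settings.

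Hey2, the third Hey gene, was dim on every array, with signals of 29.7, 4.87 and 16.2 units, and was well above background on the adherent array alone. Adherent cells were therefore at least 2.27-fold above non-adherent cells and at least 1.35-fold above re-adherent cells by this scaling, taking for the dim array the probe's own signal or the lowest one that passed as well above background there, whichever was higher. These bounds leave out technical error, which on the log2 scale was 1.02 for the first pair and 0.47, more than the bound itself, for the second. With the normexp background correction the differences were -0.50 and 0.03, so the second turned in sign. Hey2 is the one target of the 4 with a promoter window, which is shown for that reason. It lies on the minus strand at chr10:30842784-30843033 in GRCm38.p6, and its capitals mark a match to the reverse complement of the RBPJ core, beginning 207 bases before the start, that overlaps a match to the reverse complement of the TEAD core, beginning 209 bases before it.
Hey2: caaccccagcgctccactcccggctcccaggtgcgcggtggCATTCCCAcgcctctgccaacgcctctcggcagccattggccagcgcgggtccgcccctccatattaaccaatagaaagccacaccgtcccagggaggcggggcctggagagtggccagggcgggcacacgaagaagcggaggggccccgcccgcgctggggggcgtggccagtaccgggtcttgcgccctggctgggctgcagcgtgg

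Some markers of other heart cells were also higher in suspension, where 17.2% of all genes were over 2-fold higher and 14.7% over 2-fold lower. Of 10 endothelial markers, 7 were over 2-fold higher in suspension and 2 were lower at any size. The summed signal of the 10 in units of the 75th percentile was 23.2 in adherent, 35.3 in suspended and 21.7 in re-adherent cells. Kdr, the brightest of them on both plated arrays, differed by -0.35 in suspension and by 0.39 between re-adherent and adherent cells. All 10 were above background in suspension, 9 on the adherent array, where Erg was not, and 6 on the re-adherent array, where Tie1, Emcn, Cldn5 and Erg were not. Of 8 mural markers, 2 were over 2-fold higher in suspension and 1 over 2-fold lower, while 4 of the 8 were lower at any size. Kcnj8 and Abcc9, the 2 over 2-fold higher, were above background in suspension alone, and Cspg4 was the 1 over 2-fold lower, with -2.06. The summed signals of the 8 were 50.5, 67.1 and 47.0. Mcam, the brightest of them on each array, differed by 0.69 in suspension, and Pdgfrb, the next brightest, by -0.43. The 5 cardiomyocyte markers that entered, of 8 listed, were higher in suspension, 2 of them over 2-fold, with summed signals of 1.18, 1.95 and 3.36. Of these 2, Tnni3 was above background in suspension alone. Tnnt2, the brightest of the 5 on each array, differed by 0.59 in suspension. The macrophage signal given above was highest in the same state. The part of these cells in the Notch differences was not tested, and in RNA from a mixed culture more cells of a type and more RNA per cell cannot be told apart.

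The second comparison asked what happened when suspended cells were plated again. Heyl and Hey1 were 17.5-fold and 7.93-fold lower in re-adherent than in non-adherent cells, and Notch3 was 2.66-fold lower. Jag1 was 2.91-fold higher. Heyl, Hey1 and Notch3 were the 3 of the 8 genes over 2-fold lower, where 16.3% of all genes tested were. By measured values 2 of the 8 were over 2-fold higher, Jag1 and Hey2, where 15.6% of all genes were. Hey2 was not well above background on either array of this pair, so no fold is given for it.

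The log2 difference on re-adhesion was -4.13 for Heyl with an error of 0.26, and 121 genes had a more negative value. For Hey1 it was -2.99 with an error of 0.22. The 73 spots around the Hey1 spot had a median difference 0.46 above that of the array in this pair, opposite in sign to Hey1. Notch3 differed by -1.41 with an error of 0.20, and its neighbouring spots by -0.34 relative to the array. For Notch2 the value was -0.98 with an error of 0.20, just inside the 2-fold limit, and its second probe gave -0.76. It lay past that limit, between -1.34 and -1.06, under some other scalings. These were the authors' values, quantile normalization, no scaling, spike-in scaling and a percentile over probes measured on all arrays. Under them 4 of the 8 genes were over 2-fold lower, where between 17.6% and 23.4% of all genes were. The spots around the Notch2 spot were 0.38 higher relative to the array, opposite in sign to Notch2. Jag1 was 1.54 higher with an error of 0.20, and this value lay between 1.18 and 1.55 under the 13 settings. Hes1 was 0.90 higher with an error of 0.21, or 0.53 without scaling between arrays, and its neighbouring spots were 0.43 higher relative to the array. The part of these spatial differences was not tested. Both steps share the non-adherent array, so an opposite sign in the second step is not independent of the first.

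**Figure D2:**
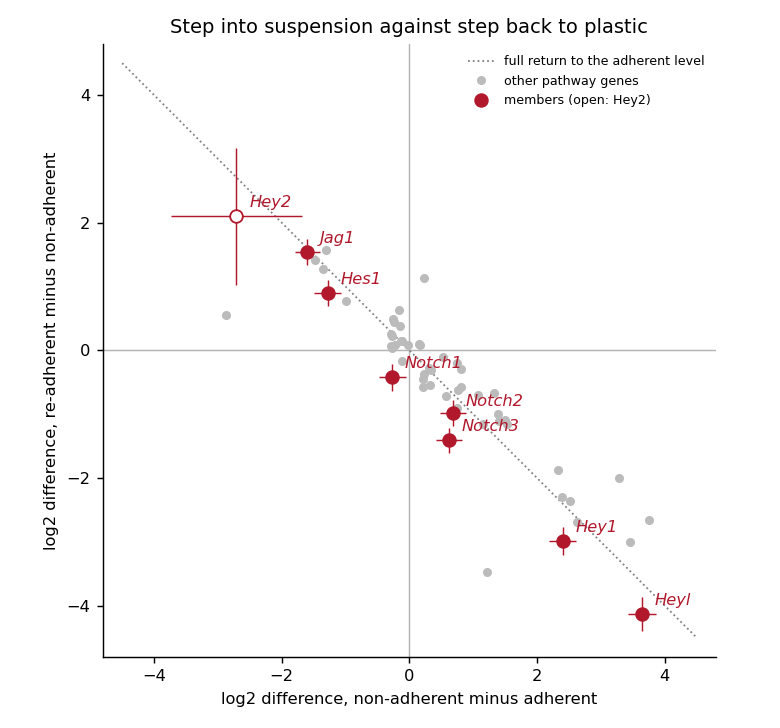
Log2 difference of each gene on entering suspension (x axis) against its log2 difference on re-adhesion (y axis), for the 8 Notch genes in red with technical errors and 49 other pathway genes in grey; the dotted line marks a full return to the adherent level, and both axes share the non-adherent array. Hey1 and Heyl lie at the lower right, Jag1 and Hes1 at the upper left, and 8 of the 8 Notch genes lie below the dotted line. Hey2 (open) entered through the adherent array alone.

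The third comparison asked whether re-adherent cells had returned to the adherent state. None of the 8 Notch genes differed over 2-fold between these arrays, where 4.90% of all genes tested passed that limit downwards and 4.84% upwards. This count depended on the scaling: with spike-in scaling Notch1, Notch3, Hey1 and Hey2 were over 2-fold lower, where 12.6% of all genes were, and without scaling 1 was, where 7.83% of all genes were. All 8 were nonetheless lower in re-adherent cells by the scaling used, whereas 43.9% of all genes were. Hey2 was above background on the adherent array alone, so it entered through the state in which it was high. The 7 genes above background on all 3 arrays were lower too, where 42.1% of all genes with such a signal were. The median difference of the 8 was -0.54, against 0.06 over all genes. That of the 7 was -0.49, against 0.08 over all genes with such a signal.

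Notch3 and Notch1 differed most from their adherent levels, by -0.79 with an error of 0.20 and by -0.69 with an error of 0.21. The dimmer probe of Notch1 gave 0.17 with an error of 0.45 and was not above background on the re-adherent array. Among the targets, Hey1 differed by -0.59 with an error of 0.22 and Heyl by -0.49 with an error of 0.27. Hes1 and Notch2 differed by -0.38 and -0.30, with errors of 0.21 and 0.20. For Notch2 the second probe gave -0.07 with an error of 0.31. Jag1 had the level nearest to its start, with -0.06, which is less than its error of 0.20. The direction for Jag1 turned to 0.03 with scaling to the median, and that for Hey2 to 0.03 with the normexp correction. When the arrays were scaled to spiked-in control RNA, the median of all genes in this pair was -0.42, the Notch genes lay between -1.28 and -0.54, and 83.6% of all genes were lower. Relative to the median of all genes, the 8 Notch genes stayed below 0 under every one of the settings in which each was measured. Endothelial markers were lower in the same pair, with 7 of 10 over 2-fold lower and a median of -1.99. Of these 7, Tie1, Emcn and Cldn5 were not above background on the re-adherent array. By their bounds they were at least 1.71-fold, 9.94-fold and 4.14-fold lower. Macrophage markers were higher, with 5 of 11 over 2-fold higher and a median of 0.92. The part of endothelial cells and macrophages in the Notch values was not tested.

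**Figure D3:**
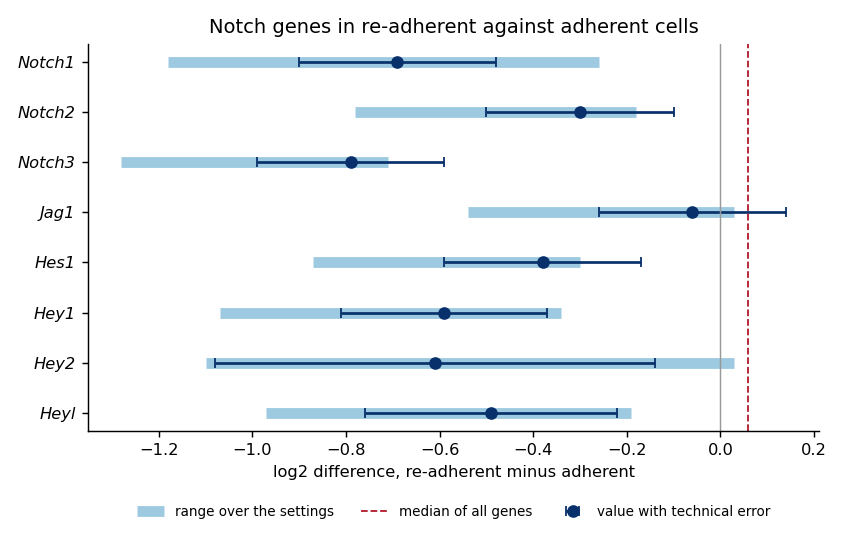
Log2 difference between re-adherent and adherent cells for the 8 Notch genes; points are the values used with the technical error of the 2 spots, pale bars span the lowest to the highest value over the settings, and the dashed line is the median of all genes at 0.06. The points lie between -0.79 and -0.06, and the bars of Jag1 and Hey2 reach across 0.

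The other genes of the pathway were read from lists of receptors, ligands, processing enzymes, nuclear partners and targets. Of 54 listed genes 49 entered. The others had no probe matched to their transcripts or, as with Hes3 and Hes5, none above background on any array. In suspension 15 of the 49 were over 2-fold higher and 4 over 2-fold lower, against the 17.2% and 14.7% of all genes given above, and their median was 0.31. With the mean over the probes of a gene, 14 were higher and 3 lower, where 17.2% and 14.8% of all genes were. Genes above background in suspension alone entered through the state in which they were high. Of the 44 above background on all 3 arrays, 10 were over 2-fold higher and 4 lower in suspension, where 15.2% and 13.4% of all genes with such a signal were. On re-adhesion 12 of the 49 were lower and 4 higher by the same limit, against 16.3% and 15.6% of all genes, with a median of -0.29. Of the 44, 7 were lower and 4 higher, where 13.3% and 14.3% of all genes with such a signal were, with a median of -0.18. Between re-adherent and adherent cells 2 of the 49 were lower and 3 higher by that limit, against 4.90% and 4.84% of all genes, with a median of 0.09. Of the 44, 1 was lower and 2 higher, where 2.49% and 3.2% of all genes with such a signal were, with a median of 0.1.

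Among the remaining ligands and receptors, Notch4, an endothelial receptor, was 1.39 higher in suspension with an error of 0.20 and 0.99 lower again on re-adhesion. Dll4, the ligand of sprouting vessels, was 1.21 higher in suspension with an error of 0.23, and re-adherent cells were at least 6.07-fold below non-adherent and at least 2.62-fold below adherent cells. Dll1 and Jag2 were above background in suspension alone, at least 2.12-fold and 2.06-fold over adherent cells. The bounds for Dll4, Dll1 and Jag2 leave out technical error. On the log2 scale it was 0.65 and 0.66 for Dll4, 0.39 for Dll1 and 1.46, more than the bound itself, for Jag2. Dlk1, a ligand-like protein without the usual receptor-binding domain, went the other way, with -2.88 in suspension and an error of 0.27, and stayed 2.34 below its adherent level after re-adhesion.

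Among the enzymes that add sugars to Notch receptors, the Fringe genes Mfng and Lfng were 13.5-fold and 5.03-fold higher in suspension, while the third Fringe gene, Rfng, and Pofut1 and Poglut1 differed by -0.13, 0.15 and -0.28 on the log2 scale. On re-adhesion Mfng and Lfng were 6.32-fold and 3.69-fold lower. Mfng stayed 2.14-fold above its adherent level. Of the 8 cleavage genes that entered, Aph1b, Adam17 and Psen2 were over 2-fold higher in suspension, by 2.51, 1.41 and 1.33, and none was over 2-fold lower. Of all genes, 17.2% were higher and 14.7% lower by that limit. The median of the 8 was 0.36, and 4 of them were lower at any size. Aph1b and Psen2 encode parts of gamma-secretase, and the product of Adam17 cuts many membrane proteins. The other main protease, encoded by Adam10, differed by -0.11, less than its error of 0.20.

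In the nucleus, Rbpj was 1.07 higher in suspension with an error of 0.20 and the Mastermind genes Maml1, Maml2 and Maml3 differed by -0.29, -0.22 and 0.57. The co-repressor genes Tle1 and Tle4 went opposite ways, by -1.30 and 1.49, and back by 1.57 and -1.09. These values are from the brightest of 3 probes for Tle1 and of 2 probes for Tle4. Rbpj, Mfng, Aph1b, Adam17 and Dlk1, among other genes named, also have 2 probes each. Their values too are from the brighter probe, and those of the second are not given. At 1.07 Rbpj lay past the 2-fold limit by less than its error. Among genes that act on receptor and ligand turnover, Mib2 and Dtx4 were higher in suspension, by 1.53 and 1.15. Nedd4 and Numbl were lower, with -1.48 and -1.35, and Numb, Fbxw7 and Itch differed by 0.76, 0.31 and 0.21.

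Of the other targets, Nrarp and Dtx1, both feedback regulators of Notch, were above background in suspension alone, so that suspended cells were at least 2.83-fold and 1.44-fold above adherent cells. These bounds leave out technical error, which on the log2 scale was 1.46 for Nrarp and 1.19, more than the bound itself, for Dtx1. Myc and Ccnd1 are also induced by many other signals. Myc was just inside the 2-fold limit in suspension, on the lower side, and Ccnd1 was 1.14 higher in re-adherent than in non-adherent cells and 1.37 above its adherent level. Hes2, Hes6 and Hes7 differed by less than 2-fold in each pair of arrays.

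**Figure D4:**
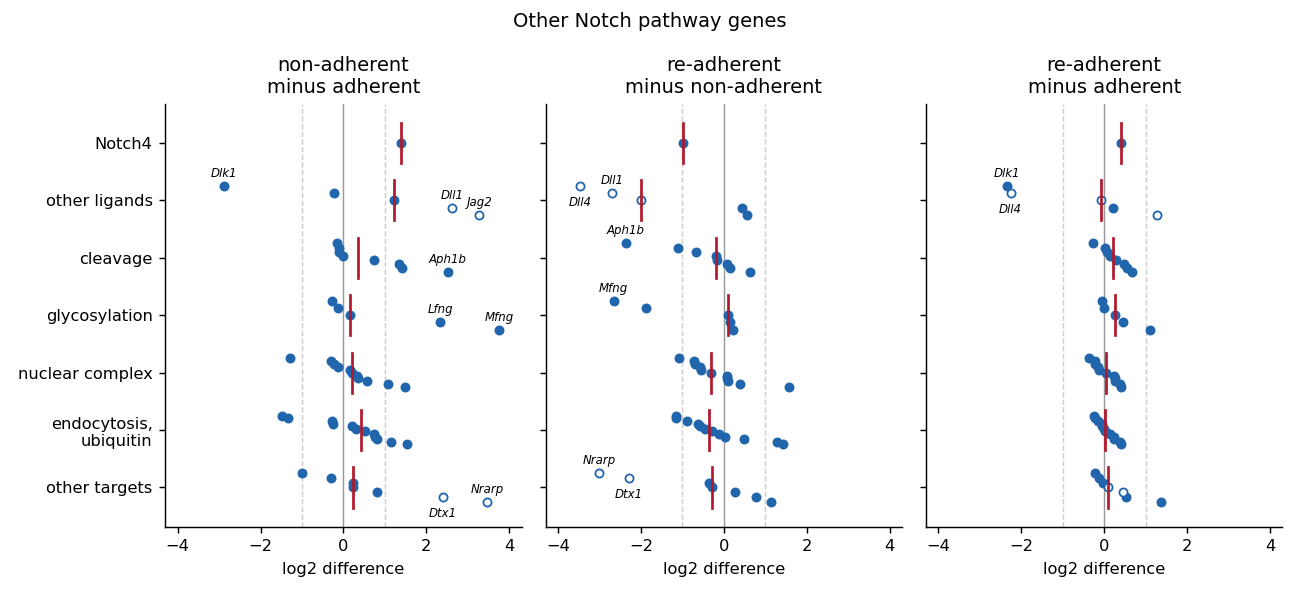
Log2 differences of 49 other Notch pathway genes in 7 lists for each pair of arrays; each point is 1 gene (open where it was not well above background on both arrays), red bars are list medians, dashed lines mark 2-fold, and genes whose value to 2 decimals lies beyond 2 or -2 are named. Mfng, Lfng, Aph1b, Dll1, Jag2, Nrarp and Dtx1 stand to the right in suspension and to the left on re-adhesion.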

How the data were processed

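Labelled RNA of 3 samples, 1 per state, was hybridised to 1-colour Agilent SurePrint G3 mouse arrays, which lay on 1 slide with 1 scan time. The authors deposited the scanner software's output (Agilent Feature Extraction 10.10.1.1), whose processed intensity is background-subtracted and spatially detrended, and a matrix of intensity values equal to these times 1.52 (adherent), 1.52 (non-adherent) and 1.62 (re-adherent). Here outlier-flagged spots were left out, the log2 of the 75th percentile of an array's non-control spots was subtracted from its log2 signals, and spots of a probe were averaged. Symbols came from RefSeq transcripts of GRCm38.p6, matched for 27235 of 55681 probes. A probe entered if any of the arrays had it well above background, and the brightest such probe stood for its gene. The number of arrays limits the precision. With 1 array per state, genes are described by a 2-fold limit, without a test. Errors given with a difference are the scanner software's, added in quadrature over the arrays.

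The genes, lists and rules were chosen with earlier results of these data known. All 8 genes are named, and from the pathway lists mainly the 10 with the largest differences past 2-fold in a pair of arrays. Notch4, Rbpj and other listed genes named beyond that were chosen after their values were seen. Background correction, scaling, the filter on dim probes, low signals, the probe rule, spot flags and the fold limit were varied. The code for scaling, differences and fold counts was tested on simulated gene values, and the other steps were not. Python 3.11.15, numpy 2.4.6, pandas 2.3.3, R 4.3.3 and limma 3.58.1 were used.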

Additional observations from a re-analysis of the deposited data

How the results depend on the processing

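Another 12 settings and 2 other fold limits were tried, among them a normexp correction of the median spot signals, chosen after seeing the data because the files used hold no mean signals. Of 285 recomputed differences of the 8 Notch genes, 3 changed sign: Notch1 in suspension with the mean over its probes (0.23), and, between re-adherent and adherent cells, Jag1 with median scaling (0.03) and Hey2 with normexp (0.03). None of these was over 2-fold. Of 168 recounts of genes over the limit, 22 moved by over 1.5 times. With normexp, 9 other pathway genes were higher in suspension (12.2% of all genes), 1 Notch gene was higher (11.0%) and 5 pathway genes lower (1555 of 15394 genes) on re-adhesion, and 1 pathway gene was lower (1.21%) and 1 higher (2.14%) between re-adherent and adherent cells, beside 187 of all genes lower and 330 higher in that last pair. Without scaling, 2 pathway genes were higher on re-adhesion (9.9% of all genes) and 1 Notch gene was lower in re-adherent than adherent cells (7.83%). With spike-in scaling, 4 Notch genes were lower and 0 pathway genes higher in that pair, beside 1940 of all genes lower and 347 higher. Requiring signal above background on all 3 arrays left 1 Notch gene higher (14.3% of all genes) and 7 pathway genes lower (13.3%) on re-adhesion, and 1 pathway gene lower (2.49%) in the last pair. Raising low signals to the floor left 1 Notch gene higher on re-adhesion (15.0%). At a 1.5-fold limit 4 Notch genes were higher in suspension (25.4% of all genes) and 4 lower in re-adherent than adherent cells (10.8%). At a 4-fold limit 1 Notch gene and 1 pathway gene were lower (5.34% of all genes) and 7 pathway genes higher (7.61%) in suspension, 1 Notch gene was higher (5.7%), 7 pathway genes lower (6.05%) and 0 higher on re-adhesion, and 0 pathway genes were higher (1.36%) in the last pair. Other than for the fold limits and the filter on dim probes, the cause of these moves was not tested. The median of all genes in suspension was -0.47 with spike-in scaling, and on re-adhesion it was -0.28 without scaling. No paired analysis was possible because each state has 1 array, and no array could be left out for the same reason.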

Other observations

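Genes whose differences over both steps were closest to those of a Notch gene were sought among the 13479 genes well above background on all 3 arrays, by Euclidean distance over 2 log2 differences, which rest on 3 arrays. For Jag1 the nearest were Cyth3, Nectin1 and Flna, the gene for the actin crosslinker filamin A, at distances of 0.022, 0.023 and 0.028, and 542 genes lay within 0.5. Heyl had few genes near it, with 12 within 0.5, and the nearest were Fam167b, Fbln1 and Gpd1 at 0.121, 0.143 and 0.165. Fbln1 encodes fibulin-1, a matrix protein. For Hey1, with 56 genes within 0.5, the nearest were Slc36a2, Cd274 and Saa1. The nearest to Notch3 were Carmil3, Socs3 and Klk1b3, with 270 genes within 0.5. Notch1, Notch2 and Hes1 lay in crowded parts of the data, with 1449, 1053 and 1050 genes within 0.5.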
